A study of Homo sapiens with 6 samples.

Results

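The mature miRNAs hsa-miR-582-5p, hsa-miR-582-3p, hsa-miR-190a-5p and hsa-miR-190a-3p, the paired products of the precursors MIR582 and MIR190A, were examined in Huh7 cells, a human hepatoma cell line. They were selected by name and account for 4 of the 2588 mature miRNAs in the deposited table. The comparison of the groups was known when they were selected, so that differences between the groups are given here as a description, with no p-value for a member, and calls of members are only counted beside the share over all miRNAs. All 6 samples were transfected with Lipofectamine, and their total RNA was taken 48 h later. The overexpression group (3 samples) received the plasmid with hsa_circ_0098181, a circular RNA studied as a suppressor of hepatocellular carcinoma, and the control group (3 samples) received the control plasmid. Transfection was transient and in a single cell line, and the counts of mature miRNAs do not measure the circular RNA itself. The sources do not say whether the samples of a group came from separate cultures, so the spread between them may be technical.

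A miRNA precursor is a hairpin from which Dicer cuts a short duplex. A strand of this duplex, the guide, is loaded into an Argonaute protein and represses mRNAs that pair with its seed (bases 2 to 8), while the passenger strand is mostly degraded. The 5p and 3p products come from the 5′ and 3′ arms of the same hairpin, so both arise from the same transcript, and their ratio depends on strand loading and stability rather than on transcription alone. Many miRNA hairpins lie in introns of protein-coding genes on the same strand and can be transcribed together with their host. The hosts here are PDE4D, which encodes a phosphodiesterase that degrades cAMP, and TLN2, which encodes talin 2, a link between integrins and the actin cytoskeleton.

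The mature sequences are shown because the arms of each hairpin were compared and because miR-190a-5p has a close relative in the same libraries. They are from RefSeq (GRCh38.p14), written 5′ to 3′, with the seed in capitals.
hsa-miR-582-5p: uUACAGUUguucaaccaguuacu
hsa-miR-582-3p: uAACUGGUugaacaacugaacc
hsa-miR-190a-5p: uGAUAUGUuugauauauuaggu
hsa-miR-190a-3p: cUAUAUAUcaaacauauuccu
hsa-miR-190b-5p: uGAUAUGUuugauauuggguug
The arms of miR-582 were perfectly complementary over 18 bases, CAGUUGUUCAACCAGUUA in the 5p arm, and those of miR-190a over 15 bases, AUAUGUUUGAUAUAU. Of the 2588 names in the table, 2283 were matched to a RefSeq mature miRNA, and among these the single other miRNA that shared a seed with a member was miR-190b, listed there without an arm and matched to hsa-miR-190b-5p. It has the seed GAUAUGU of miR-190a-5p and is identical to it over the first 15 bases. Compared position by position from the 5′ end without gaps, the other 7 positions differ (A16U, U17G, U18G, A19G, G20U, G21U and U22G, with the base of miR-190a-5p first). Reads cut to these 15 bases or fewer can therefore belong to either of them, and how such reads, or longer ones with mismatches, were assigned is not given in the sources used here. All members were rich in A and U, with 65.2% in miR-582-5p, 59.1% in miR-582-3p, 77.3% in miR-190a-5p and 76.2% in miR-190a-3p, against a median of 53.4% over 494 miRNAs tested with a known sequence.

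MIR582 (ENSG00000202601.4 in GENCODE 29) lies on chromosome 5 from 59703606 to 59703703 on the minus strand, inside PDE4D (58969038 to 60522120, minus strand). It overlaps no exon of the 29 annotated PDE4D transcripts, and 8 of them span it. In the longest of the protein-coding ones, PDE4D-208, it is in intron 3, and the nearest exons of any transcript are 117106 and 64543 bases away. MIR190A (ENSG00000211137.1) lies on the plus strand of chromosome 15, from 62823957 to 62824041, inside TLN2 (62390526 to 62844631, plus strand). It overlaps no exon of the 11 TLN2 transcripts, is spanned by 4 of them, and is in intron 53 of TLN2-209, with the nearest exons 3346 and 9462 bases away. MIR190B is elsewhere, on chromosome 1 (154193665 to 154193743, minus strand), in an intron of the tropomyosin gene TPM3. The mRNAs of the host genes were not analysed here.

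The libraries held 7144798 to 10786295 counts, with control replicate 3 the smallest. The hepatocyte miRNA miR-122-5p, the usual marker of liver cells, was the most abundant miRNA and took 30.6% to 33.9% of the counts. Levels below are CPM scaled by edgeR's TMM factors, which ranged from 0.92 to 1.09. Each count is a read of a mature miRNA of 21 to 23 bases, so levels of the members were compared without a correction for length. Cloning and ligation efficiency differ between sequences and were not measured, which limits comparisons of level between miRNAs more than comparisons of a miRNA between samples. A lower level in bulk RNA cannot be told apart from a smaller share of cells that make the miRNA.

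Both precursors were expressed, from opposite arms. miR-582-3p was the most abundant member, at 209 ± 19.8 CPM over the 6 samples (SD, n = 6), followed by miR-190a-5p at 179 ± 49.0 CPM, miR-582-5p at 45.5 ± 10.9 CPM and miR-190a-3p at 1.25 ± 0.485 CPM. In the order of all miRNAs of the table by mean TPM they ranked 118, 125, 195 and 540. miR-582-3p and miR-190a-5p did not differ beyond their spread, since miR-190a-5p was the higher in control replicates 1 and 2 and miR-582-3p in the other 4 samples. From these to miR-582-5p, and from there to miR-190a-3p, the ranges of the 6 samples did not meet. Their relative miR-190b lay between, at 75.8 ± 5.29 CPM (rank 168).

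Within the libraries, the 3p arm dominated miR-582 and the 5p arm dominated miR-190a. The log2 ratio of 5p to 3p counts (0.5 added to each) was -2.23 ± 0.29 for miR-582 (SD, n = 6), below 0 in 6 of 6 samples, which is a 4.69-fold excess of the 3p arm. For miR-190a it was 7.14 ± 0.43 (SD, n = 6), above 0 in 6 of 6 samples, a 141-fold excess of the 5p arm. Each ratio differed from 0 in an exact two-sided sign-flip permutation test over the 6 samples (p = 0.031 for each, also after Benjamini-Hochberg adjustment over the 2 precursors), which is the smallest value that 6 samples allow. Among the 135 precursors with both arms tested, 80 had more 5p than 3p.

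miR-582-5p, the minor arm of MIR582, was lower in the overexpression group. Overexpression replicates 1 to 3 held 341, 257 and 287 reads of it, and control replicates 1 to 3 held 659, 497 and 348. This corresponds to 42.9, 33.0 and 35.8 CPM with hsa_circ_0098181 and to 60.8, 55.5 and 44.8 CPM with the control plasmid. Every overexpression sample lay below every control sample, with control replicate 3 the nearest. Of all miRNAs tested, 6.52% had groups that did not overlap with the overexpression group lower. The exact Poisson 95% intervals of the nearest samples overlapped, at 38.3 to 47.5 TPM in overexpression replicate 1 and 43.7 to 54.1 TPM in control replicate 3. The group means were 37.2 ± 5.12 CPM and 53.7 ± 8.17 CPM (SD, n = 3 each). The log2 fold change was -0.53 (standard error 0.14), which is 0.692 of the control level. The coefficient of variation within the groups, 13.7% and 15.2%, was larger than the 5.82% and 4.47% that counting alone gives.

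The dominant arm of the same hairpin, miR-582-3p, differed less. The overexpression samples held 1606, 1678 and 1516 reads and the control samples 2491, 2077 and 1447, which were 202, 215 and 189 CPM and 230, 232 and 186 CPM. Control replicates 1 and 2 were above all other samples, whereas control replicate 3 was below them, so the groups overlapped. The means were 202 ± 13.1 CPM and 216 ± 25.9 CPM (SD, n = 3 each). The log2 fold change was -0.10 (standard error 0.11), a difference within the spread of the control samples. This depended on the scaling, since scaling by library size only gave a log2 fold change of -0.21 with groups that did not overlap, while the median over all miRNAs tested moved from 0.0038 to -0.11 with that scaling. The separation was narrow there, with 201 TPM in the highest overexpression sample and 203 TPM in the lowest control sample. How many of all miRNAs had such groups with that scaling was not counted.

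The arm ratio of miR-582, which does not depend on the scaling of the libraries, separated the groups. It is made of the same counts of miR-582-5p and miR-582-3p as above. Its difference between the groups is therefore another form of theirs and not a separate result. Of the reads of both arms, the 5p arm took 17.5%, 13.3% and 15.9% with hsa_circ_0098181 (replicates 1 to 3) and 20.9%, 19.3% and 19.4% with the control plasmid (replicates 1 to 3). The exact binomial 95% confidence intervals, which cover counting error only, were 11.8% to 14.9% in overexpression replicate 2 and 19.5% to 22.4% in control replicate 1, the lowest and highest samples. In the nearest samples of the groups, overexpression replicate 1 and control replicate 2, they overlapped, at 15.85% to 19.3% and 17.8% to 20.9%. Here control replicate 3 was next to control replicate 2. On the log2 scale the ratio was -2.45 ± 0.24 with hsa_circ_0098181 and -2.01 ± 0.081 with the control plasmid (SD, n = 3 each), a difference of -0.43, and this was between -0.54 and -0.31 when each sample was left out in turn. The smallest difference was found without overexpression replicate 2, the sample with the lowest share of the 5p arm. Groups that do not overlap were common among arm ratios, at 19.3% of the 135 precursors (9.63% with the lower ratio in the overexpression group), and the difference of miR-582 was the 23rd in absolute size among them. The median absolute difference of the 135 was 0.19. Leaving out a sample cannot make separated groups overlap, so the groups of miR-582 necessarily stayed apart without control replicate 3. Without it, 37.8% of the 135 had groups that did not overlap.

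**Figure D1:**
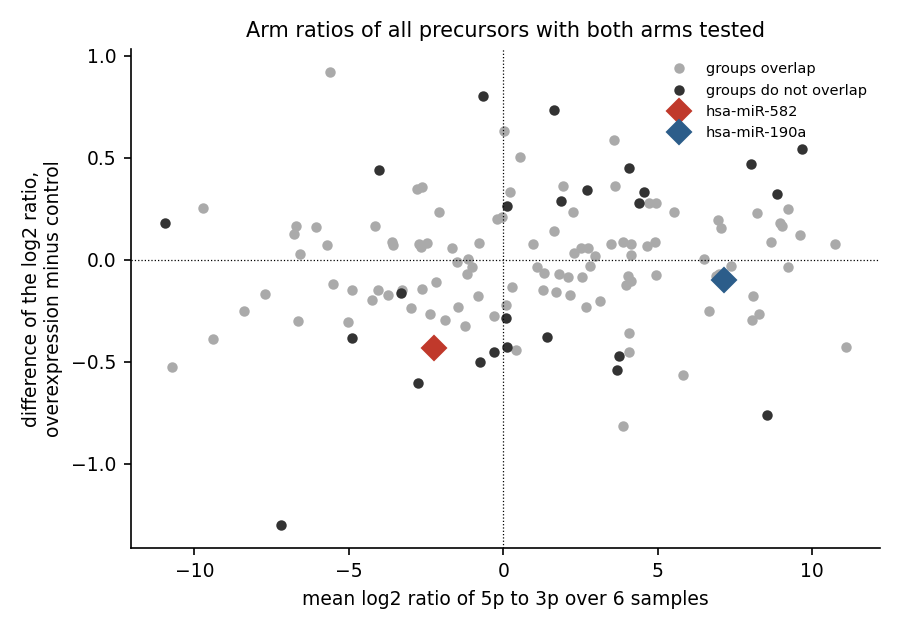
Mean log2 ratio of 5p to 3p over the 6 samples (horizontal axis) and its difference between overexpression and control (vertical axis) for the 135 precursors with both arms tested, dark where the groups did not overlap. miR-582 (red diamond) lay at -2.23 and -0.43, inside the range of the other precursors, and miR-190a (blue diamond) at 7.14 and -0.10.

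miR-190a-5p, the dominant arm of MIR190A, was highest in control replicates 1 and 2. Its reads numbered 1136, 1280 and 1256 in replicates 1 to 3 of the overexpression group and 2548, 2187 and 996 in those of the control group. Its levels were 143, 164 and 157 CPM with hsa_circ_0098181, and 235, 244 and 128 CPM with the control plasmid. The overexpression samples lay close together, control replicates 1 and 2 lay above them, and control replicate 3 lay below all of them. The means were 155 ± 10.8 CPM and 203 ± 64.6 CPM (SD, n = 3 each), and the log2 fold change was -0.39 (standard error 0.19). The control group varied by 31.9%, where counting alone gives 2.29%, and the overexpression group by 6.98%, where counting gives 2.86%. The biological coefficient of variation fitted by edgeR was 17.2%, against a median of 11.7% over the 552 miRNAs tested.

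The log2 fold change of miR-190a-5p, -0.39 with all 6 samples, was nearer to 0 without control replicate 1 (-0.28) or control replicate 2 (-0.24). It moved most, to -0.65, without control replicate 3. On the log2 CPM scale, this library was 0.90 below the mean of control replicates 1 and 2 (a difference of -0.90), the 14th most negative of 552 miRNAs, whose median absolute difference was 0.26. The overexpression samples differed from the same control replicates by -0.63, and since both differences use control replicates 1 and 2 they are not independent. The same differences were -0.37 and -0.65 for miR-582-5p and -0.31 and -0.19 for miR-582-3p, so control replicate 3 was lower for each of them. The content of A and U moved with this library, as over the 494 miRNAs with a known sequence, all measured in the same libraries, Spearman's rho between this content and the difference of control replicate 3 was -0.34, against -0.13 for the difference of the overexpression samples from the same control replicates and 0.019 for the log2 fold change of all 6 samples. The median difference of control replicate 3 was -0.12 for the 182 miRNAs with at least the content of miR-582-3p and 0.0053 for all 494. The part of base composition in the values of miR-190a-5p was not tested.

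Its seed relative miR-190b was steadier. With 528, 602 and 615 reads under overexpression and 894, 666 and 600 under the control plasmid, it reached 66.4, 77.2 and 76.7 CPM and 82.5, 74.4 and 77.2 CPM. The groups overlapped, the log2 fold change was -0.09 (standard error 0.11), and control replicate 3 differed from the other controls by -0.02. This overlap depended on the scaling, as it did for miR-582-3p. With scaling by library size only, the log2 fold change was -0.20 and the groups did not overlap. Their ranges were 66.2 to 74.2 TPM under overexpression and 76.8 to 84.0 TPM under the control plasmid. The share of all miRNAs with such groups was not counted there. The content of A and U in miR-190b is 68.2%. The log2 ratio of miR-190a-5p to miR-190b was 1.10, 1.09 and 1.03 under overexpression and 1.51, 1.71 and 0.73 under the control plasmid, each for replicates 1 to 3. The step of control replicate 3 was thus found in miR-190a-5p and not in the miRNA with the same seed. The ratio of miR-190a-5p to miR-582-3p had the same order, with 0.033 and 0.074 in control replicates 1 and 2, -0.54 in control replicate 3 and -0.50 to -0.27 in the overexpression samples.

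miR-190a-3p, the passenger arm, was close to the limit of these libraries. The overexpression samples held 5, 15 and 8 reads of it and the control samples 16, 14 and 7. These were 0.629, 1.92 and 0.998 CPM and 1.48, 1.56 and 0.901 CPM, and the groups overlapped. The exact Poisson 95% interval was 1.62 to 11.7 counts for the lowest and 9.15 to 26.0 counts for the highest of these counts. The log2 fold change was -0.18 with a standard error of 0.45, so a difference was not detectable. The overexpression group varied by 56.4%, where counting alone gives 32.7%, and the control group by 27.4%, where counting gives 28.5%. It passed the filter of edgeR, which asked for about 1.19 CPM in 3 samples, through overexpression replicate 2 and control replicates 1 and 2. The 5p arm took 98.8% to 99.6% of the reads of MIR190A, and the log2 ratio of the arms was 7.09 ± 0.67 with hsa_circ_0098181 and 7.19 ± 0.12 with the control plasmid (SD, n = 3 each).

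**Figure D2:**
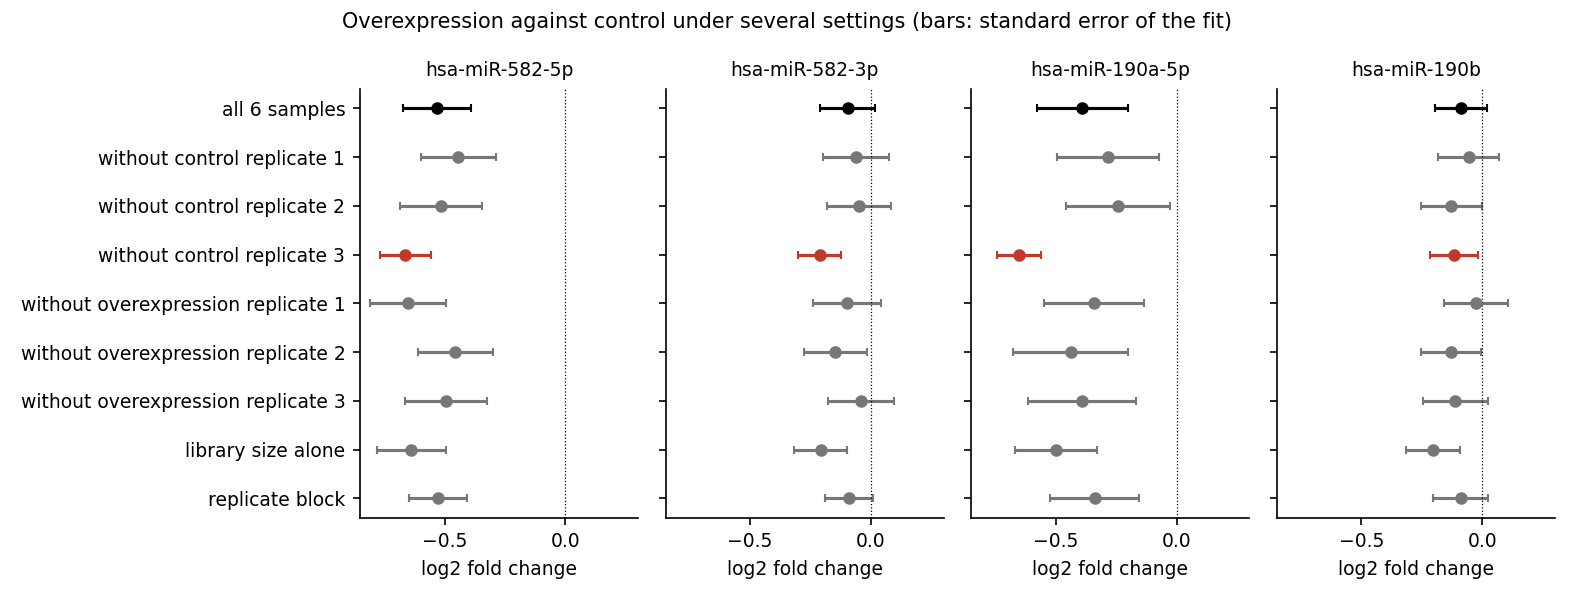
Log2 fold change of overexpression against control (horizontal axis) with the standard error of the fit, for miR-582-5p, miR-582-3p, miR-190a-5p and miR-190b with all 6 samples, with each sample left out, with scaling by library size only and with the replicate number as a block. miR-582-5p stayed between -0.66 and -0.44, and the value of miR-190a-5p moved from -0.39 to -0.65 without control replicate 3 (red).

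With all 6 samples, edgeR's quasi-likelihood test gave an adjusted p under 0.05 for 0 of the 4 members and for 0 of the 552 miRNAs tested (0%), while 50 miRNAs (9.06%) had an unadjusted p under 0.05 in edgeR and 41 in DESeq2. Of the 4 members, 1 (miR-582-5p) had groups that did not overlap, against 15.4% of all miRNAs tested and 6.52% with the overexpression group lower. Without control replicate 3, edgeR gave an adjusted p under 0.05 for 2 of the 4 members, miR-582-5p and miR-190a-5p, both lower, where 9.91% of 565 miRNAs did and 6.73% were lower. The log2 fold changes were then -0.66 (standard error 0.11) for miR-582-5p, -0.65 (standard error 0.090) for miR-190a-5p and -0.21 (standard error 0.089) for miR-582-3p. Without that library 3 of the 4 members had groups that did not overlap, all lower, beside 38.6% of all miRNAs and 19.2% with the overexpression group lower. Without the filter on low counts, miR-582-5p alone of the members had an adjusted p under 0.05 in edgeR, among 0.439% of 1366 miRNAs, all lower. These values come from the comparison that was known when the members were chosen, and nothing further was read from them.

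By the smallest root-mean-square difference in log2 CPM over the 6 samples, each miRNA centred on its mean, the profile of miR-582-5p was nearest to those of miR-18a-5p, a product of the miR-17-92 cluster (0.095), miR-106b-5p, which is made from an intron of MCM7 (0.098), and miR-32-5p (0.10). The median difference to all miRNAs tested was 0.37. miR-582-3p was nearest to miR-326 (0.030), miR-200a-3p of the epithelial miR-200 family (0.045) and the abundant liver miRNA miR-148a-3p (0.048), with a median of 0.23 to all. The arms of miR-582 were thus not among the nearest profiles of each other. miR-190a-5p was nearest to miR-100-3p (0.074), miR-34a-3p, the minor arm of the p53-induced miR-34a (0.10), and miR-590-5p (0.10), with a median of 0.40 to all. In miR-100-3p, miR-34a-3p and miR-590-5p, as in miR-190a-5p, control replicates 1 and 2 were the highest samples, at 0.34 to 0.48 above the mean for the former 3. This likeness follows from their choice by profile over the same samples. The nearest profiles of miR-190a-3p, those of miR-548u, miR-3913-5p and miR-1250-5p, were farther away (0.17 to 0.22). The counts of miR-190a-3p leave a large counting error, and its part in these distances was not tested.

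Other miRNAs encoded in protein-coding genes were counted in both directions. A list of 62 such miRNA names, drawn from general knowledge, gave 125 mature products in the table, of which 100 passed the filter. Of these names, 57 were matched to RefSeq, with 62 precursors, and GENCODE 29 placed 61 of these precursors within a protein-coding gene on the same strand. The location of the remaining names was not checked. With all 6 samples, edgeR gave an adjusted p under 0.05 for 0 of the 100, and at an unadjusted p under 0.05 there were 6 lower and 8 higher in the overexpression group, beside 4.71% lower and 4.35% higher of all miRNAs tested. Their median log2 fold change was 0.016 and 47.0% were below 0, beside a median of 0.0038 and 49.1% over all 552 miRNAs. Without control replicate 3, 9 were lower and 7 higher at an adjusted p under 0.05 in edgeR (16% of the 100), beside 9.91% of all 565 miRNAs and 6.73% lower. The smallest unadjusted p among the lower ones belonged to miR-32-5p, from an intron of TMEM245, at 83.4 ± 4.09 against 120 ± 21.1 CPM (overexpression against control, SD, n = 3 each), and to miR-188-5p, from the miR-532 cluster in CLCN5, at 30.0 ± 3.81 against 40.9 ± 3.46 CPM. Among the higher ones they belonged to miR-532-5p of the same CLCN5 cluster, at 2840 ± 184 against 2296 ± 99.2 CPM, and to miR-25-3p, from an intron of MCM7, at 32349 ± 1708 against 27600 ± 883 CPM. Each of these 4, chosen by unadjusted p in this same comparison, had groups that did not overlap. Of the 100, 6 had such groups with the overexpression group lower and 12 with it higher, beside 15.4% of all miRNAs tested. The adjusted p of the 4 was 0.295 or 0.306 in edgeR, so none passed the threshold. miR-582-5p, with a log2 fold change of -0.53, was as far below 0 as miR-32-5p (-0.52). The latter was chosen by its p and not by its size, and the lowest log2 fold change among the 100 was -0.72 (standard error 0.25).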

How the data were processed

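Total RNA of 6 Huh7 samples was used for miRNA sequencing. The authors deposited counts of reads per mature miRNA in each sample, and TPM values that equal the count scaled by the total of the same sample (CPM) to within 0.00303, without a length correction. The submitters' processing notes name hg38, Bowtie, TopHat and TopHat2 2.0.9. Trimming, the miRNA annotation and the treatment of reads with several matches are not given in the sources used here. The groups were compared on counts in edgeR 4.0.16 under R 4.3.3 (filterByExpr with a minimum count of 10 and total of 15, TMM factors, two-sided quasi-likelihood test without covariates, Benjamini-Hochberg adjustment over 552 miRNAs, threshold 0.05), and the calls were tested on simulated data. DESeq2 1.42.0, limma 3.58.1, other scalings and filters, a replicate block and leaving out each sample were alternatives. Profiles used log2 CPM with a prior count of 2. The members and lists were chosen with earlier results of these data known. Named were the members, miRNAs with the same seed, the 3 nearest profiles of each member, and the 2 smallest unadjusted p in each direction among other miRNAs in protein-coding genes. Comparisons within the arms of other precursors were chosen after seeing the data. The total was 7144798 to 10786295 counts per sample. Intervals cover counting error only.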

Additional observations from a re-analysis of the deposited data

How the results depend on the processing

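The log2 fold changes of miR-582-5p (-0.53), miR-582-3p (-0.10) and miR-190a-5p (-0.39) were below 0 under every alternative run, from -0.66 to -0.44, from -0.21 to -0.041 and from -0.65 to -0.24, and these extremes all came from leaving out a sample. For miR-190a-5p they were the fits without control replicate 3 and without control replicate 2. That of miR-190a-3p (-0.18) was between -0.71 and 0.12 with a sample left out, turning above 0 without overexpression replicate 1, and could not be given with at least 10 counts in every sample. At an adjusted p under 0.05, edgeR called 0 miRNAs with all 6 samples, 3 with the library size alone, 6 without a filter (miR-582-5p among them) and 0 to 56 with a sample left out, where 56 was found without control replicate 3. The 1 member with groups that did not overlap (15.4% of all miRNAs tested) became 2 with the library size alone, where the share over all miRNAs was not counted. The member added there, miR-582-3p, had 201 TPM in overexpression replicate 1 and 203 TPM in control replicate 3, with 95% counting intervals that overlapped. Leaving out a sample can only raise such counts. Without control replicate 3 they were 3 members (38.6% of all miRNAs), and the precursors with such arm ratios increased from 26 to 51 of 135. The log2 arm ratio was -2.29 to -2.13 for miR-582 and 7.03 to 7.29 for miR-190a with a sample left out, where 5 samples allow no exact p under 0.0625, and -2.21 and 6.60 with 5 added to each count. The difference of the miR-582 arm ratio between the groups, -0.43, was -0.54 to -0.31 with a sample left out, and its alternatives were added after seeing the data. The causes were not tested.

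No pairing by replicate number was found. Over 295 miRNAs with a mean of at least 100 counts, the deviations of same-numbered samples from their group means correlated at -0.20, 0.19 and 0.15, and 1 of the 3 overexpression samples was closest to its own number. With the replicate block, the log2 fold changes of miR-582-5p, miR-582-3p, miR-190a-5p and miR-190a-3p were -0.53, -0.09, -0.34 and -0.19, edgeR called 0 miRNAs at an adjusted p under 0.05 (42 unadjusted), and the mean of the paired differences of the miR-582 arm ratio was -0.43.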
